A study of Mus musculus with 12 samples.

Results

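The complement genes followed here were C1qa, C1qb, C1qc, C3, C4b, C2, Cfb, Cfp and Mbl2, read by cell type in mouse liver. They were taken by symbol from the gene lists of the count matrices, with no filter on their values. Earlier results of these data were known when the genes were chosen. All 9 were found, among 31053 genes on the list for the embryonic stage E16.5 and among 22597 on the list for postnatal day 3 (P3). Droplet-based single-cell RNA sequencing had been applied to dissociated whole livers of mice that were Jag1+/+ (wild type), heterozygous (Jag1Ndr/+) or homozygous (Jag1Ndr/Ndr) for the Nodder allele, all born to heterozygous parents. Jag1 encodes a Notch ligand, and the allele is present in every cell of the animal. The series named 2 animals per genotype and stage, so libraries stand for separate animals, and homozygous pups at P3 had been recognised by their jaundice.

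The 12 deposited matrices held 9 separate libraries. At E16.5 there were 5, namely Jag1+/+ replicate 1, Jag1Ndr/+ replicate 1, Jag1Ndr/Ndr replicates 1 and 2, and 1 library that had been deposited under both Jag1+/+ replicate 2 and Jag1Ndr/+ replicate 2, called the shared library below. At P3 there were 4. Libraries A and B were deposited as Jag1+/+ replicates 1 and 2. Most barcodes of library A were also found under both homozygous labels, and those of library B under a heterozygous and a homozygous label, so their genotype is unclear. Library C was Jag1Ndr/Ndr replicate 1 without the barcodes of library A, and library D was Jag1Ndr/+ replicate 1. Separate libraries of a stage otherwise shared 0.595 to 1.72% of their barcodes. A cell was kept with 1000 UMIs or more, of which mitochondrial genes took no more than 15%. After doublets and clusters of mostly doublets were removed, 99744 such cells were left at E16.5 and 64509 at P3, of which 142 P3 cells with as many leading hepatocyte as neutrophil markers stayed unnamed. The removed clusters (1 at E16.5 and 6 at P3) also held 44 and 1128 cells not called doublets. At P3, 451 and 291 of these lay in a pair of clusters led by neutrophil genes, 183 and 181 in a pair led by macrophage genes, and 18 and 4 in clusters with leading genes of monocytes and of T and NK cells. The median UMI count per cell was 5325 to 9256 in the E16.5 libraries and 2961 to 6235 in those of P3. The lowest count per deposited barcode was 2295 to 3736 UMIs at E16.5 and 2399 in the matrix behind library C. In libraries A, B and D it was 500 to 592. The limit of 1000 UMIs removed 0 barcodes from the E16.5 libraries and library C, and 2522 to 3414 from each of the others. Clusters were named from marker lists that held no complement gene, and the complement genes were kept out of the clustering. This gave 11 classes at E16.5 and 13 at P3, the other 2 being dendritic-like and plasmacytoid dendritic-like cells. They are called below by the cell type they resemble, and they may differ from the names used by the authors. All 14 hepatocyte markers, all 13 macrophage markers, all 18 neutrophil markers and all 15 mesenchymal markers had at least 1 UMI in the class of that name at both stages. In at least 5% of mesenchymal-like cells, 14 of the mesenchymal markers were detected at each stage. No cluster carried the name of bile duct cells. The monocyte-like cluster at E16.5 had 3 monocyte and 2 dendritic markers among its leading genes. Its mean z-score was higher for the dendritic list (3.24) than for the monocyte list (2.34). The monocyte-like classes of the 2 stages are therefore not drawn alike, since dendritic-like cells were set apart only at P3.

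Complement is a set of plasma proteins that mark foreign or damaged surfaces. C1q, a complex of the chains encoded by C1qa, C1qb and C1qc, binds antibody and starts the classical pathway, whereas mannose-binding lectin, encoded by Mbl2, binds sugars and starts the lectin pathway. Both lead to the cleavage of C4 and C2, which form the enzyme that cleaves C3, while factor B (Cfb) and properdin (Cfp) form and stabilise the corresponding enzyme of the alternative pathway. In the adult, hepatocytes are the main source of circulating C3, C4, C2, factor B and mannose-binding lectin. C1q comes largely from macrophages and dendritic cells, and properdin from myeloid cells.

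In the GENCODE M21 annotation of GRCm38, C1qa (4:136895917-136898803), C1qc (4:136889804-136893065) and C1qb (4:136880129-136886187) lay side by side on the minus strand of chromosome 4. C4b (17:34728380-34743882), Cfb (17:34856374-34862518) and C2 (17:34862604-34898265) lay together on the minus strand of chromosome 17, and C3 (17:57203970-57228136) lay apart from them on the same strand. Cfp was on the minus strand of the X chromosome (X:20925454-20931555) and Mbl2 on the plus strand of chromosome 19 (19:30232942-30239687). Cfb and C2 are both overlapped on their own strand by Gm20547, which was on the gene lists of both stages. C4b has a near-identical copy, C4a, which was on neither list, so no UMIs were counted to it. How reads of such genes were assigned was not stated, so the values of these 3 genes carry that uncertainty.

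The RefSeq promoter table of GRCm38.p6 held 5 of the 9 genes, C1qb, C1qc, C3, Cfp and Mbl2. The 250 bases before the RefSeq start are shown for C1qb and C1qc, both led by macrophage-like cells, for Cfp, also led by that class, and for C3, led by hepatocyte-like cells. They are written 5′ to 3′ along the gene, and capitals mark the motif matches found on either strand. The motifs searched were GAGGAA, the core recognised by PU.1, TTGCNNAA for C/EBP factors, GTTAAT as a part of the HNF1 site, and TATAAA for the TATA box.
C1qb (4:136886201-136886450, minus strand): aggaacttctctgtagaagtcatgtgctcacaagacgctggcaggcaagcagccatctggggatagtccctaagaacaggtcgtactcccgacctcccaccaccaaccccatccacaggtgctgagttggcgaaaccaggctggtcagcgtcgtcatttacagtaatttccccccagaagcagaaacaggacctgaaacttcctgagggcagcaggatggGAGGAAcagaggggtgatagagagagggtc
C1qc (4:136892915-136893164, minus strand): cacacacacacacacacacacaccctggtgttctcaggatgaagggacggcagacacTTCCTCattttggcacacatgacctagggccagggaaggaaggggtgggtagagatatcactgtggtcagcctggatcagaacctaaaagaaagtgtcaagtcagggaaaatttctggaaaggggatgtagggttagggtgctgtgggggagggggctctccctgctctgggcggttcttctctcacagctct
Cfp (X:20931556-20931805, minus strand): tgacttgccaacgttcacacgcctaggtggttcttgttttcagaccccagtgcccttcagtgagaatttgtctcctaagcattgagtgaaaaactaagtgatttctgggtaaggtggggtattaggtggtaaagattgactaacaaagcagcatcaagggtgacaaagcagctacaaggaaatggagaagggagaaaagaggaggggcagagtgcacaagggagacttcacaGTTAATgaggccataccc
C3 (17:57228137-57228386, minus strand): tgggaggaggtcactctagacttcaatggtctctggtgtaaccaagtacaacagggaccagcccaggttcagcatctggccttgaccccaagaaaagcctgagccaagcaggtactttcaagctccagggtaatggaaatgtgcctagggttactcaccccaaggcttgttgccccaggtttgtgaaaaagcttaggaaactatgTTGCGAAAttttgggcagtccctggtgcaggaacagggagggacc
GAGGAA was found 30 bases before the start of C1qb, and on the opposite strand 193 bases before that of C1qc. TTGCNNAA was found 45 bases before the start of C3 and GTTAAT 18 bases before that of Cfp. Among all 32851 promoters of this length, 23.25% held GAGGAA, 9.564% held TTGCNNAA, 6.432% held GTTAAT and 12.37% held TATAAA. The Mbl2 promoter held none of the 4. The motif positions do not overlap, and a match in letters describes the sequence and does not show that a factor binds there.

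By class means, at both stages the 3 C1q genes and Cfp had their highest level in macrophage-like cells, and C3, C4b, Cfb and Mbl2 had theirs in hepatocyte-like cells, although C3 at P3 overlapped between hepatocyte-like and mesenchymal-like cells. C2 was led by hepatocyte-like cells at E16.5 and by mesenchymal-like and macrophage-like cells at P3. A level is given as CPM, the usual scaling of a gene's UMIs to the UMI total of that class in 1 library, and its mean ± SD is over the 5 or 4 libraries. Erythroid-like cells, which should lack these transcripts, served as the measure of background. At P3 they include a cluster of 1241 cells led in part by the macrophage genes Hmox1 and Marco, so the P3 background is not free RNA alone. Without that cluster, the P3 background of C1qa was 25.6 CPM in place of 49.5 CPM. Because the classes come from clusters of the same cells, differences between classes are given without a test.

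**Figure D1:**
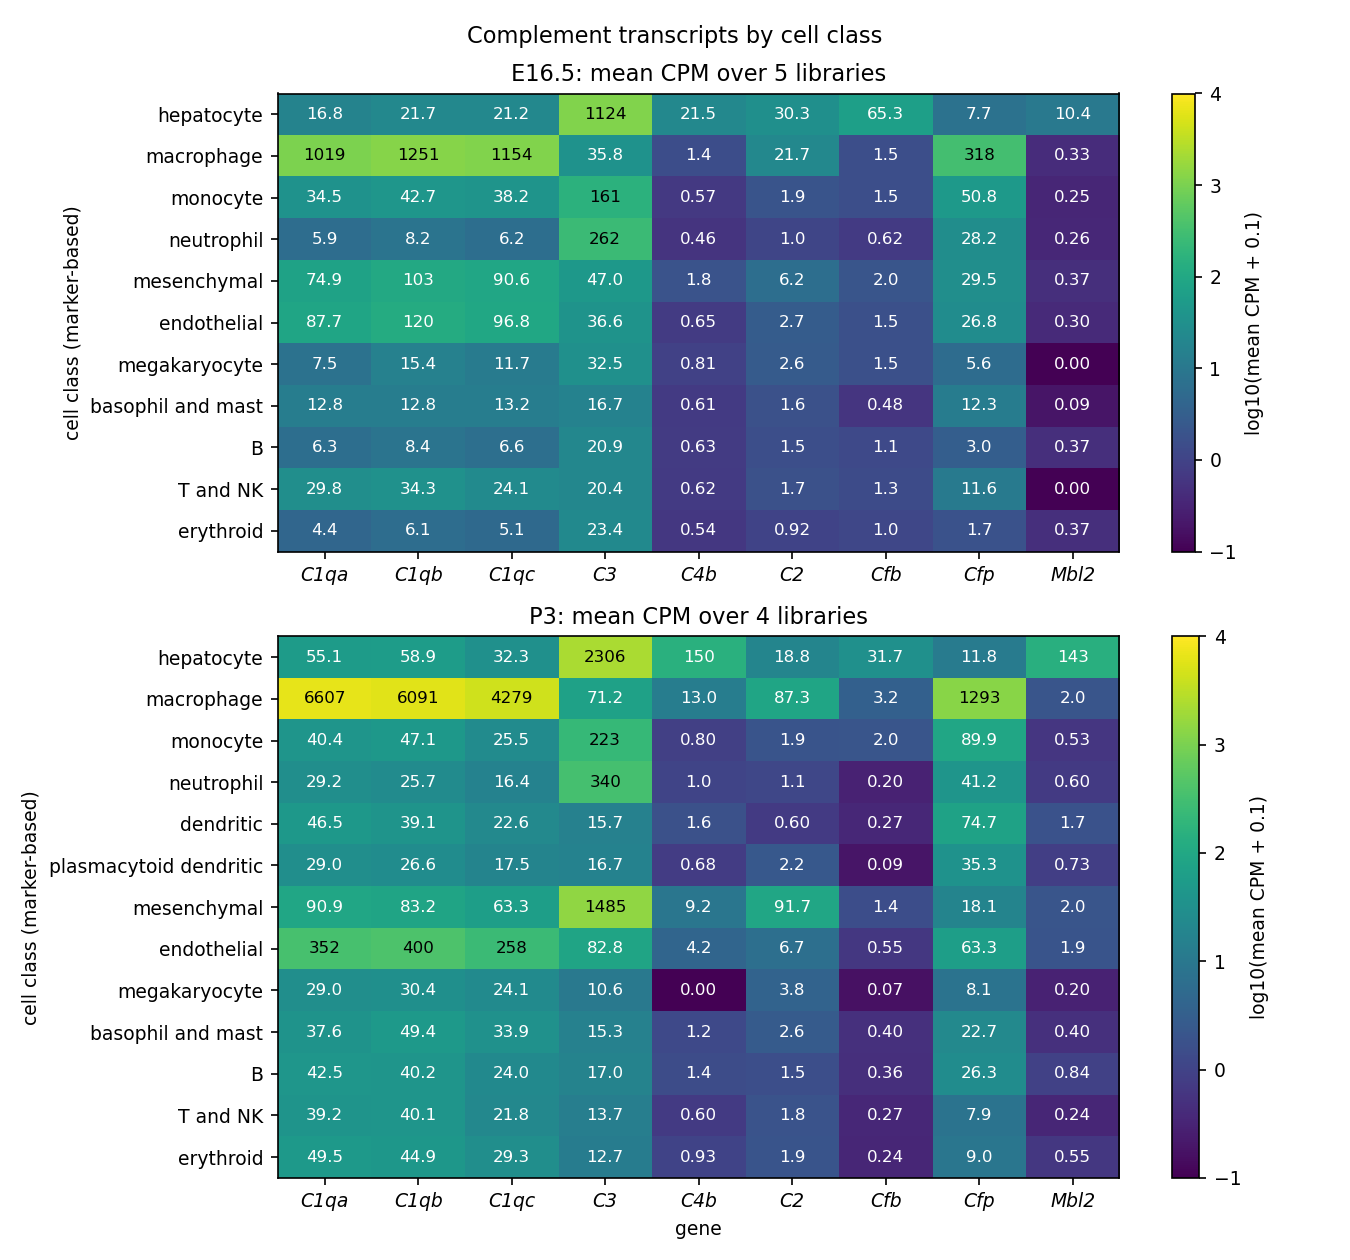
Mean CPM of the 9 complement genes in each cell class at E16.5 (upper panel, 5 libraries) and P3 (lower panel, 4 libraries). Colour gives log10 of the mean CPM plus 0.1 and each cell prints the mean. The C1q genes and Cfp stand out in the macrophage row and C3 in the hepatocyte row, with a bright C3 cell in the mesenchymal row at P3 only.

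The C1q chains form the recognition part of the classical pathway. In macrophage-like cells at E16.5, C1qa stood at 1073 CPM in Jag1+/+ replicate 1, 997.9 in the shared library, 1110 in Jag1Ndr/+ replicate 1, and 1031 and 880.4 in Jag1Ndr/Ndr replicates 1 and 2. The 5 libraries lay close together, with a mean of 1019 ± 88.2 CPM (SD, n = 5). Endothelial-like cells came next at 87.7 ± 28.4 CPM, and erythroid-like cells had 4.39 ± 0.850 CPM. At P3, C1qa stood at 7046, 8157, 6778 and 4446 CPM in libraries A to D, with library D lowest, and no P3 library overlapped an E16.5 library.

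For C1qb and C1qc too, macrophage-like, endothelial-like and mesenchymal-like cells had the 3 highest means at both stages. C1qb had 1251 ± 174 CPM in macrophage-like cells at E16.5 and 6091 ± 1064 at P3 (n = 4). C1qc had 1154 ± 101 CPM at E16.5 and 4279 ± 1121 at P3, again with library D lowest at 2652. Macrophage-like cells were 3.78 to 5.25% of the cells of a library at E16.5 and 3.02 to 6.92% at P3. They held 83.8% of all C1qa UMIs, 82.5% of the C1qb UMIs and 83.8% of the C1qc UMIs at E16.5, and 84.3%, 84.0% and 85.2% at P3, as means over libraries.

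In endothelial-like and mesenchymal-like cells, the C1q genes stood somewhat below the macrophage markers, both relative to macrophage-like cells. Endothelial-like cells had 8.39 to 9.61% of the macrophage-like level of the 3 C1q genes at E16.5, where the summed macrophage markers stood at 12.5% of theirs. At P3 the C1q genes were at 5.33 to 6.56% and the marker sum at 6.84%. In mesenchymal-like cells the corresponding values were 7.35 to 8.24% beside 10.9% at E16.5, and 1.37 to 1.48% beside 2.07% at P3. In hepatocyte-like cells at E16.5 the C1q genes were at 1.65 to 1.84%, further below the marker sum of 6.42%. Of the C1q UMIs in macrophage-like cells at E16.5, 29.8 ± 2.15% came from C1qa, 36.4 ± 2.22% from C1qb and 33.7 ± 0.767% from C1qc. Erythroid-like cells gave nearly the same proportions, with 28.1%, 39.4% and 32.5%. At P3 the proportions were 38.8%, 36.2% and 25.0% in macrophage-like cells and 39.7%, 36.6% and 23.8% in erythroid-like cells.

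The 3 chains were also read cell by cell after each cell had been thinned to 1000 UMIs. All 3 were detected together in 22.2 ± 4.65% of macrophage-like cells at E16.5 and in 92.9 ± 5.31% at P3, and in 0.00366% and 0.604% of erythroid-like cells. At least 1 chain was detected in 71.9 ± 2.54% of macrophage-like cells at E16.5 and 99.9 ± 0.189% at P3. The share in erythroid-like cells, the cluster with macrophage genes included, was 1.68% and 9.14%. No cell was left out, since all held at least that many UMIs. Erythroid markers took 22.8 to 42.1% of the macrophage-like UMIs at E16.5 and 5.37 to 12.6% at P3. Thinning to a total therefore left fewer UMIs of other genes at E16.5, which also holds for Cfp below. Without thinning, C1qa was detected in 77.7% of macrophage-like cells at E16.5 and in 99.8% at P3, and in 2.92% and 15.4% of erythroid-like cells. Across the 11 classes at E16.5, the genes with the pattern most like that of C1qa among 8342 genes were Clec4f (Pearson r = 0.996), C1qc (r = 0.995) and C1qb (r = 0.995). Cd5l was among the 3 genes closest to C1qb (r = 0.995) and to C1qc (r = 0.994), beside the other chains. Clec4f and Cd5l are macrophage genes and were among the markers that named the class.

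**Figure D2:**
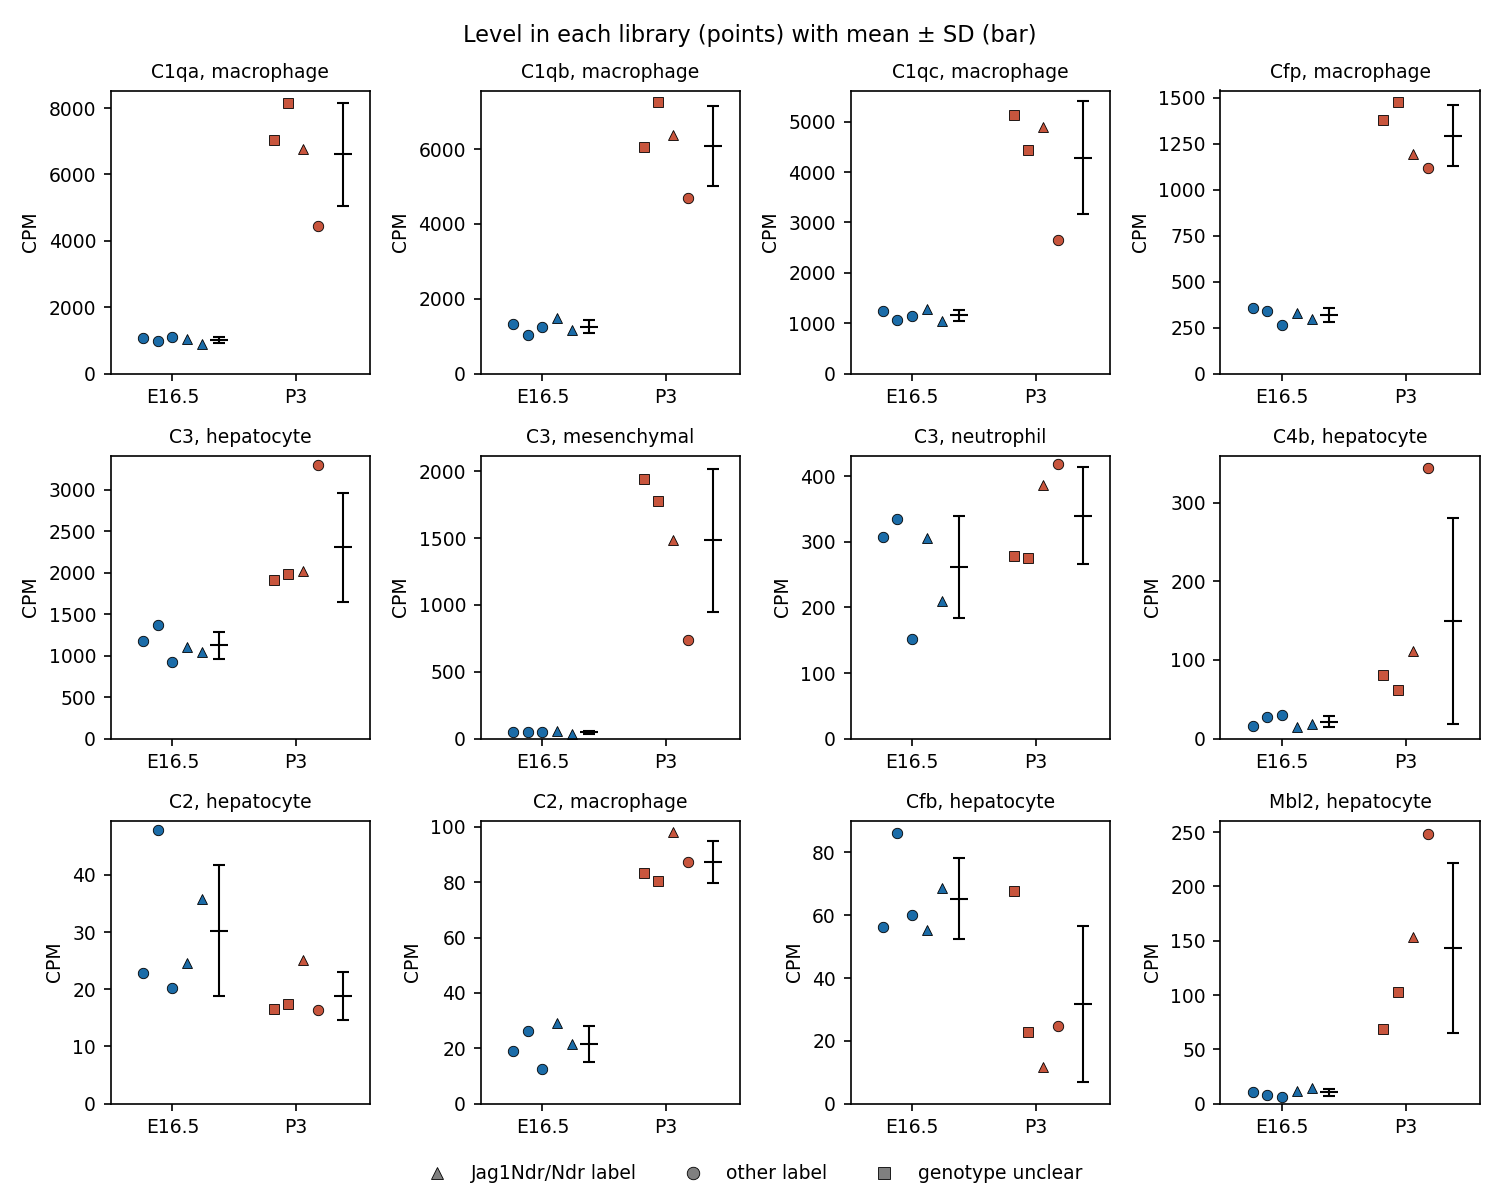
Level (CPM, linear axes from 0) of the complement genes in their main source classes, with 1 point per library, E16.5 in blue and P3 in red, and the mean ± SD beside the points. Triangles carry the Jag1Ndr/Ndr label, circles another label, and squares the P3 libraries A and B of unclear genotype. The stages are separate for C1qa, C1qb, C1qc and Cfp in macrophages, and library D is highest for hepatocyte C3, C4b and Mbl2.

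Properdin (Cfp) stabilises the alternative pathway enzyme. Its level in macrophage-like cells was 359.5, 341.9, 264.1, 329.9 and 296.6 CPM in the 5 E16.5 libraries, in the order given above, and 1382, 1479, 1196 and 1116 CPM in P3 libraries A to D. The stages did not overlap. These cells held 61.5 ± 4.80% of all Cfp UMIs at E16.5 and 65.7 ± 7.53% at P3, a smaller share than of the C1q UMIs. The neutrophil-like class held 17.3% and 11.6%, and the monocyte-like class 9.48% and 6.78%.

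Unlike the C1q genes, Cfp in other myeloid classes stood above the macrophage markers. In monocyte-like cells it had 15.95% of its macrophage-like level at E16.5 and 6.95% at P3, beside 4.41% and 1.07% for the summed macrophage markers. In neutrophil-like cells it had 8.87% and 3.19%, beside 1.84% and 0.711%, and in dendritic-like cells at P3 it had 5.77% beside 0.770%. After thinning to 1000 UMIs, Cfp was detected in 19.0 ± 1.88% of macrophage-like cells at E16.5 and 70.0 ± 5.38% at P3, beside 0.185% and 1.04% of erythroid-like cells. The unthinned shares were 52.6% and 95.5%, beside 1.22% and 4.37%. The genes most like Cfp across the E16.5 classes were Ear2 (r = 0.966), Lrrc25 (r = 0.961) and Cd300c2 (r = 0.959).

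C3 is the central component, on which all pathways converge. In hepatocyte-like cells it stood at 1182, 1366, 924, 1102 and 1045 CPM in the E16.5 libraries and at 1919, 1989, 2018 and 3296 CPM in P3 libraries A to D. Every P3 library lay above every E16.5 library, and library D lay apart from the other P3 libraries. Hepatocyte-like cells were 2.99 to 5.32% of the cells at E16.5 and 1.15 to 3.27% at P3. They held 39.4 ± 3.97% of all C3 UMIs at E16.5 and 28.2 ± 7.80% at P3. The neutrophil-like class, with a lower level in many more cells, held 34.4 ± 5.80% and 48.4 ± 6.16%. These shares are over the kept cells, of which 7.95 to 12.6% were neutrophil-like at E16.5 and 10.3 to 20.0% at P3. Whether the kept cells match the make-up of the liver was not tested.

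The level of C3 in neutrophil-like cells was 306.8, 334.4, 151.3, 306 and 209.5 CPM at E16.5 and 278.8, 275.5, 386.5 and 418 CPM at P3. The stages overlapped. This was 11.2 times the erythroid-like level at E16.5 and 26.7 times at P3, on totals that include erythroid RNA. With the erythroid marker UMIs left out of the totals, the gap was smaller. At E16.5, C3 was then 310.1 ± 81.7 CPM in neutrophil-like and 60.6 ± 15.2 CPM in erythroid-like cells. At P3 it was 350.6 ± 76.0 and 21.97 ± 9.93 CPM. The 14 hepatocyte markers summed to 1280 ± 199 CPM in neutrophil-like cells and 1824 ± 407 CPM in erythroid-like cells at E16.5, and to 329.2 ± 81.6 and 351.2 ± 127 CPM at P3, so they were not raised in the neutrophil-like class. Monocyte-like cells had 161.3 ± 35.3 CPM of C3 at E16.5 and 222.7 ± 22.1 CPM at P3. At a depth of 1000 UMIs, C3 was detected in 35.7 ± 6.60% of hepatocyte-like, 22.5 ± 5.42% of neutrophil-like and 15.02 ± 3.97% of monocyte-like cells at E16.5. The erythroid-like background was 2.79% there. The P3 values were 37.3%, 29.4% and 23.6%, over 1.61%. Without thinning, the neutrophil-like share was 81.0% at E16.5 and 78.9% at P3, over 15.95% and 7.47%. The genes most like C3 across the E16.5 classes were Cldn1 (r = 0.943), Dgat2 (r = 0.939) and Acsl1 (r = 0.936).

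**Figure D3:**
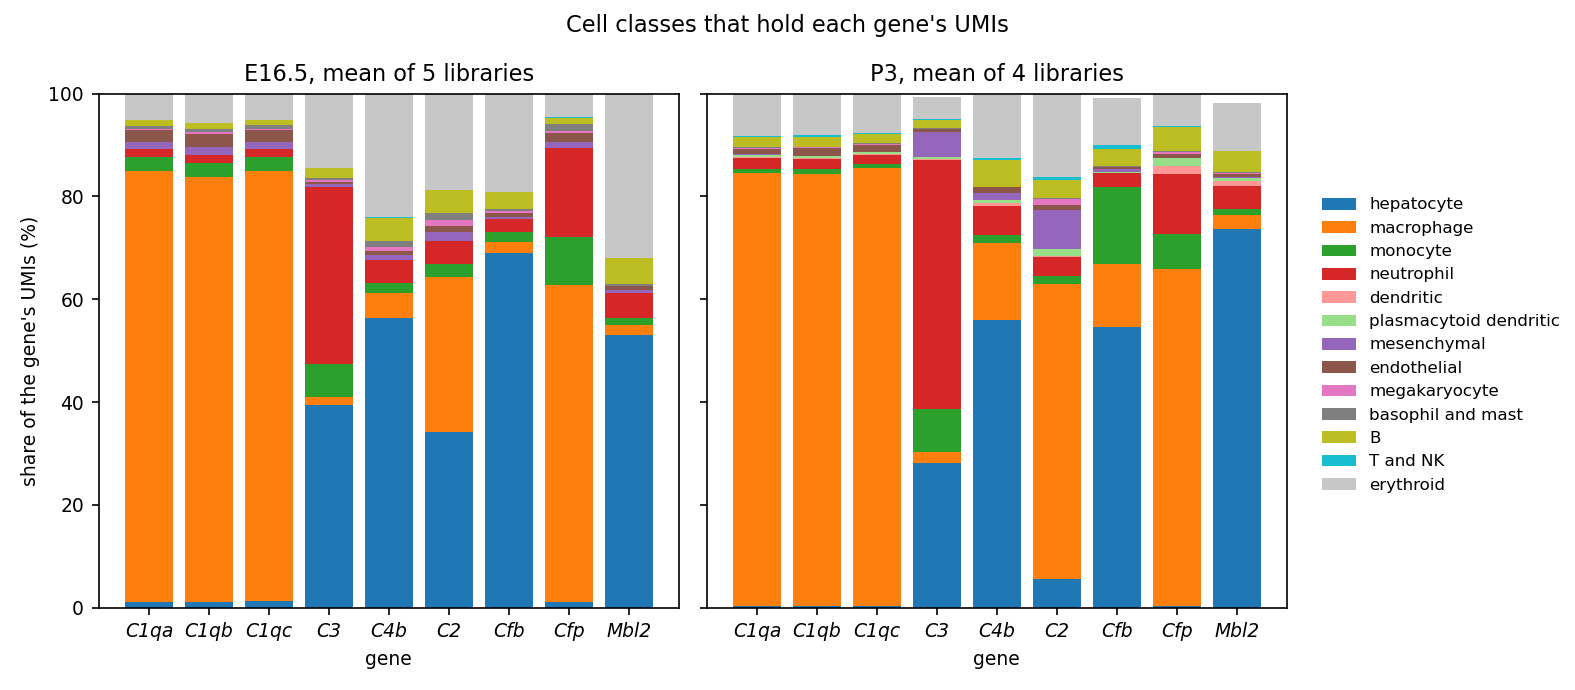
Share of each gene's UMIs in the kept cells (percent, stacked to at most 100) held by each cell class, as the mean over 5 libraries at E16.5 and 4 at P3. Macrophages hold most C1q and Cfp UMIs at both stages, neutrophils hold 34.4% of the C3 UMIs at E16.5 and 48.4% at P3, and the hepatocyte share of C2 falls from 34.3% to 5.64%.

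Within the neutrophil-like class, C3 and Cfp had different orders over the 4 clusters of each stage. C3 was lowest in the cluster led by Elane and Prtn3, genes of early granule-forming precursors, at 124.5 ± 40.8 CPM at E16.5 and 198.5 ± 44.3 CPM at P3. Its mean was highest in the cluster rich in Camp and Ngp, genes of later granules, at 397.4 ± 119 and 485.3 ± 115 CPM. In the cluster led by Retnlg, which marks mature neutrophils, it was 263.4 ± 84.7 and 233 ± 105 CPM. For C3, the Elane-led and the Camp-rich clusters did not overlap between libraries at either stage, whereas the Retnlg-led cluster overlapped the Elane-led one at both. Cfp was also lowest in the cluster led by Elane, with 8.45 ± 1.69 and 13.3 ± 2.23 CPM. It was highest in the cluster led by Retnlg, with 53.0 ± 9.44 and 143 ± 33.1 CPM. For Cfp, the ranges of the Elane-led and Retnlg-led clusters did not overlap those of any other neutrophil-like cluster of the stage. The Retnlg-led clusters of the stages are not alike: most leading genes of the E16.5 cluster, such as Ly6g, Ltf and Stfa2, lead the P3 cluster of Csta2 and Ly6g, where Cfp was 81.4 ± 4.85 CPM and C3 363 ± 97.9 CPM.

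**Figure D4:**
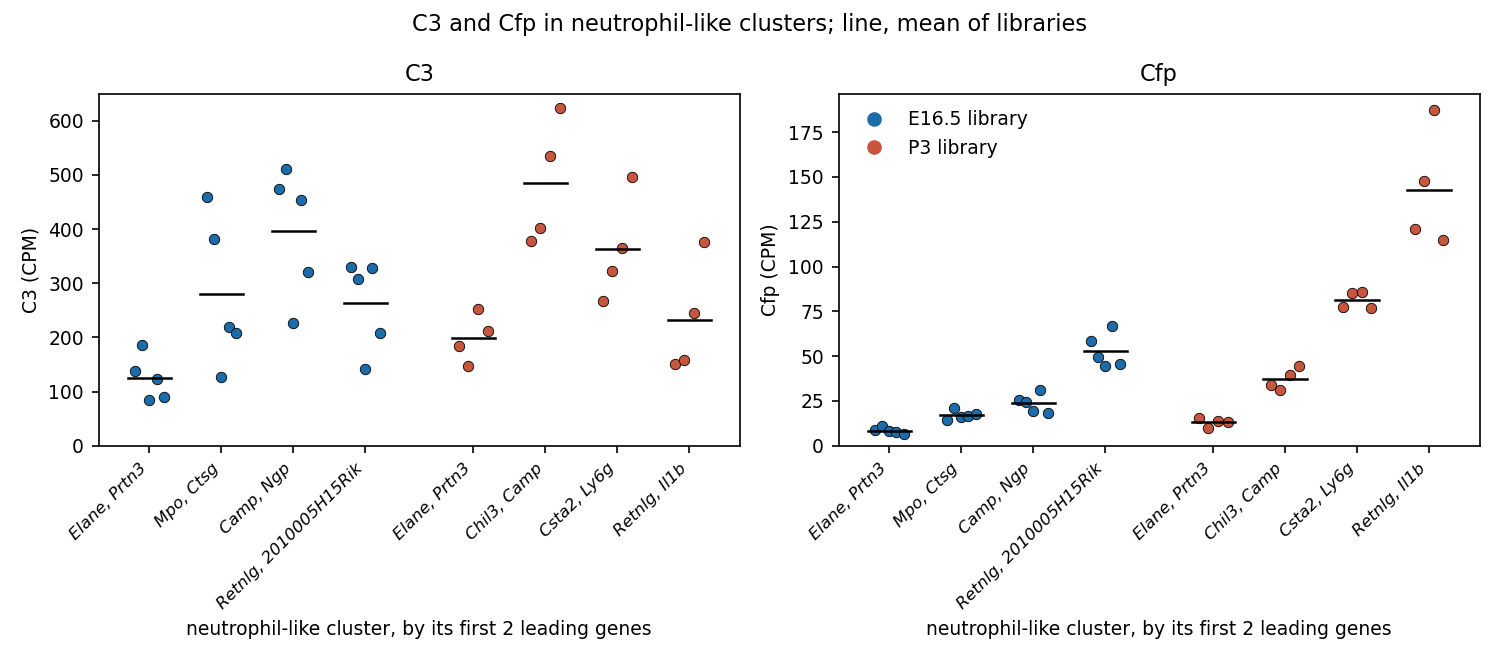
C3 (left) and Cfp (right) in the neutrophil-like clusters, as CPM per library (points) with the mean (line), E16.5 in blue and P3 in red. Each cluster is named by its first 2 leading genes. C3 has its highest mean in the Camp clusters, and Cfp rises from the Elane to the Retnlg clusters at both stages.

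Mesenchymal-like cells had C3 levels of 46.8, 52.9, 49.5, 54.2 and 31.8 CPM at E16.5 and 1939, 1781, 1483 and 735.7 CPM at P3. The stages did not overlap. The class held 141 to 221 cells per library at E16.5 and 43 to 121 at P3. Markers of mesothelium, the cell layer that covers the liver, moved with it. All 6 were detected at both stages, and their sum ranged from 92.9 to 276 CPM at E16.5 and from 536 to 1565 CPM at P3. The mean z-score of the class was higher for the mesothelial than for the mesenchymal list (4.52 against 3.83 at E16.5, 5.06 against 3.96 at P3). Its name came from its leading genes, of which 4 were mesenchymal markers and 0 mesothelial ones. Library B also held 29360 CPM of Ins2, an insulin gene, in this class, against 0 to 1 UMI in the other P3 libraries.

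The class was therefore divided, after these values had been seen, into cells with and without a UMI of a mesothelial marker. At P3, the cells with such a UMI (67, 29, 21 and 11 in libraries A to D) had 2974, 2870, 3427 and 2097 CPM of C3. The cells without one (54, 46, 33 and 32) had 94.0, 167, 42.6 and 61.7 CPM. At E16.5, the cells with a mesothelial UMI had 29.1 to 93.7 CPM and those without one 32.3 to 52.0 CPM. At P3, C2 was also higher in cells with a mesothelial UMI, with 226, 122, 239 and 62.3 CPM in cells with a mesothelial UMI and 13.8, 9.05, 7.10 and 20.6 CPM in cells without. At E16.5 it was 6.47 to 21.4 CPM in cells with a mesothelial UMI and 1.34 to 6.18 CPM in those without, from 1 to 7 UMIs each, with intervals that overlap in all 5 libraries. Only 3 and 2 UMIs of C2 lie behind the 2 values of library D, whose intervals overlap. All these intervals cover counting error only.

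**Figure D5:**
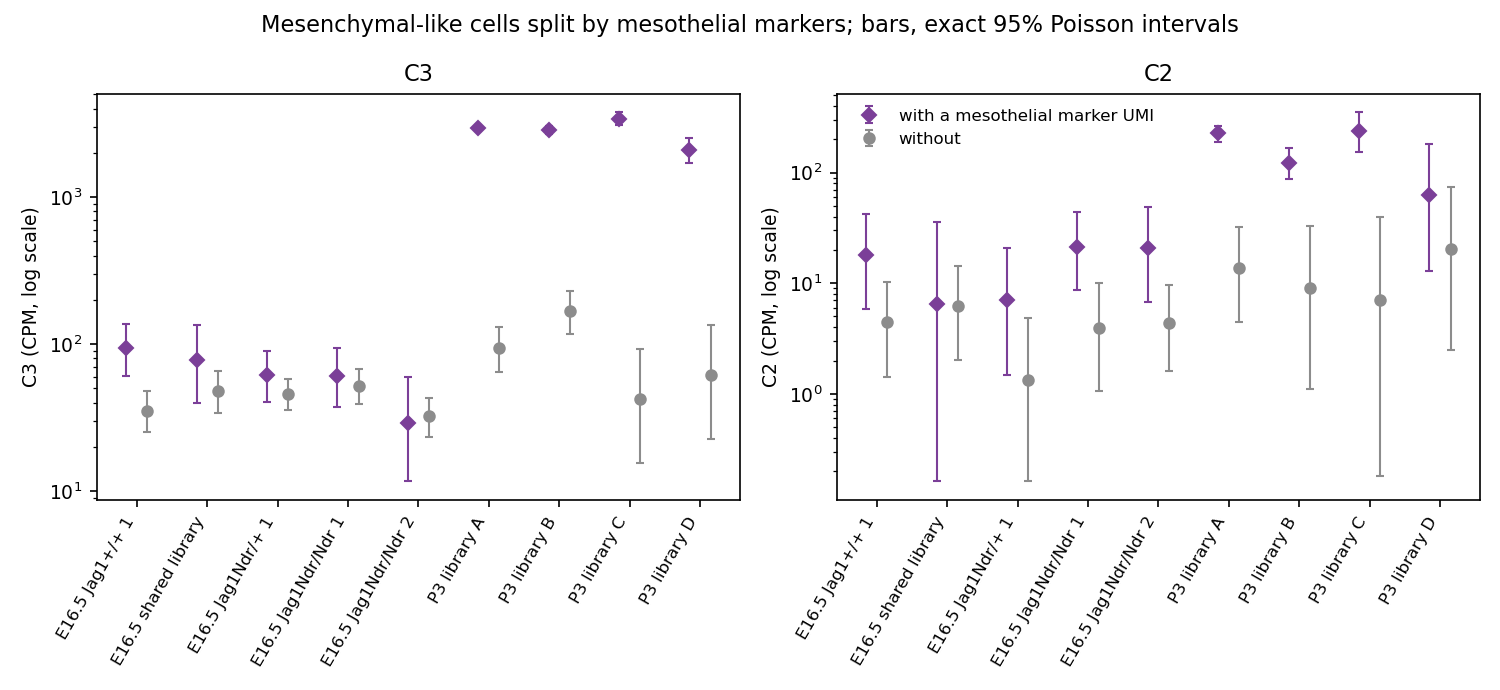
C3 (left) and C2 (right) in mesenchymal-like cells with a UMI of a mesothelial marker (purple) and without one (grey) in each library, as CPM on a log axis with exact Poisson intervals at 95%. At P3, C3 stands at 2097 to 3427 CPM in the purple points and 42.6 to 167 CPM in the grey ones, whereas at E16.5 all C3 points are at most 93.7 CPM.

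C4b, C2 and Cfb encode the pieces that build the enzymes cleaving C3. C4b in hepatocyte-like cells was 15.7, 28.0, 29.7, 15.3 and 18.8 CPM at E16.5 and 81.2, 62.1, 112 and 343.4 CPM at P3, with library D highest. Macrophage-like cells came next at P3, with 12.96 ± 3.60 CPM, over 0.933 ± 0.409 CPM in erythroid-like cells. The hepatocyte-like class held 56.3% of the C4b UMIs at E16.5 and 55.9% at P3. Genes with the most similar pattern at E16.5 were Acot4 (r = 0.996), Aadac (r = 0.993) and Pdzk1 (r = 0.992).

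By class means, C2 was the only one of the 9 genes whose leading class differed between the stages, and the leading pair of classes overlapped between libraries at both stages. Hepatocyte-like cells had 22.8, 47.8, 20.3, 24.6 and 35.8 CPM at E16.5 and 16.49, 17.35, 25.11 and 16.41 CPM at P3, and these ranges overlapped. Macrophage-like cells had 19.2, 26.3, 12.5, 29.2 and 21.4 CPM at E16.5 and 83.3, 80.5, 97.99 and 87.3 CPM at P3, with no overlap. Hepatocyte-like cells held 34.3 ± 7.996% of the C2 UMIs at E16.5 and 5.64 ± 1.40% at P3, and macrophage-like cells 30.1 ± 6.63% and 57.2 ± 8.61%. In mesenchymal-like cells C2 was 2.61 to 8.17 CPM at E16.5 and 150, 76.6, 106 and 34.4 CPM at P3. Those without a mesothelial UMI had 7.10 to 20.6 CPM at P3, below every macrophage-like value. The means of the macrophage-like (87.3) and mesenchymal-like (91.7) classes at P3 did not differ beyond their spread. Without library A the order of these 2 classes turned, with 88.6 CPM in macrophage-like and 72.3 CPM in mesenchymal-like cells. The genes most like C2 at E16.5 were Lpl (r = 0.972), Apoc1 (r = 0.960) and Paqr9 (r = 0.949).

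Factor B (Cfb) had its level in hepatocyte-like cells far above all other classes, with 56.3, 86.2, 60.2, 55.4 and 68.5 CPM at E16.5 and 67.8, 22.95, 11.6 and 24.6 CPM at P3. Library A alone reached the E16.5 range. The next class had 2.01 CPM at E16.5 (mesenchymal-like) and 3.25 CPM at P3 (macrophage-like), and erythroid-like cells had 1.04 and 0.240 CPM. Its closest genes at E16.5 were Slc36a2 (r = 0.995), Proz (r = 0.993) and Gys2 (r = 0.993).

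Mbl2, which starts the lectin pathway, was detected above the background in hepatocyte-like cells, with 10.9, 8.28, 6.39, 12.1 and 14.5 CPM at E16.5 and 68.8, 102.4, 153.5 and 248.5 CPM at P3. The stages did not overlap, and library D was again highest. The means of the other classes were 0 to 0.371 CPM at E16.5, where erythroid-like cells had 0.369 CPM, and 0.197 to 1.97 CPM at P3. The correlations named above are descriptions over 11 class means that share libraries and depth, and Mbl2 stayed under the 20 CPM required for one.

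The hepatocyte-like class joined a shallow and a deep cluster at each stage, and the means of C3, C4b, C2, Cfb and Mbl2 were higher in the deep one. In the deep cluster (median of 23330 UMIs per cell at E16.5 and 13730 at P3), C3 was 1726 ± 191 CPM at E16.5 and 5365 ± 519 CPM at P3. There, library D stood at 5316 CPM of C3, inside the range of the other P3 libraries (4900 to 6100), whereas for C4b it remained highest at 554.5 CPM against 192.1 to 286.1. In the whole class, the summed hepatocyte markers took 14.2% of the UMIs in library D and 6.71 to 8.55% in libraries A to C. Mbl2 in the deep cluster was 15.7 ± 5.62 CPM at E16.5 and 284.8 ± 101 CPM at P3. Cfb was 98.9 ± 8.82 and 76.3 ± 64.4 CPM.

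The next comparison asked how the levels differed between P3 and E16.5, with 4 libraries against 5. It was tested by edgeR's quasi-likelihood test on summed counts per library and class, with Benjamini-Hochberg adjustment over all 110000 pairs of class and gene. Of these pairs, 44.3% passed an adjusted p of 0.05 (22.1% higher and 22.1% lower at P3). Of the 99 pairs that the 9 genes form with 11 classes, 74 passed the filter on low counts, and 35 were higher and 4 lower at P3. The 4 lower calls became 9 without library A, beside 20.4% of all pairs, and 2 without Jag1Ndr/+ replicate 1, Jag1Ndr/Ndr replicate 1, library C or library D, beside 19.7 to 21.2%. The median log2 fold change was 0.86 over those 74 pairs and 0.004 over all pairs. The digestion included TrypLE at E16.5 only and the 10x software version followed the stage, so stage cannot be told apart from these. The mix of genotypes also differed between the stages, libraries A and B being of unclear genotype. Genotype was not part of the model, and its share in the stage differences was not tested. The lowest UMI count per deposited barcode also differed, at 2295 to 3736 for E16.5 and 500 to 592 for libraries A, B and D. The p-values measure the spread between these libraries.

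In macrophage-like cells, 6 of the 8 genes tested rose, where 29.3% of all genes were higher at P3. The 13 markers of this class, summed, went from 6047 ± 1213 to 19690 ± 1611 CPM beside them. On the log2 scale, C1qa rose by 2.06 with a standard error of 0.22 (adjusted p = 2.58e-05, edgeR), C1qb by 1.64 ± 0.21, C1qc by 1.26 ± 0.23 and Cfp by 1.41 ± 0.14. C2 rose by 1.41 ± 0.17 and C4b by 2.60 ± 0.33. The adjusted p-values of these 5 lay between 1.71e-05 and 8.64e-04 by edgeR. C3 (0.37 ± 0.22, adjusted p = 0.187, edgeR) and Cfb (0.68 ± 0.51, adjusted p = 0.303, edgeR) did not pass.

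Erythroid RNA in the macrophage-like class also differed between the stages. The 16 erythroid markers took 22.8 to 42.1% of its UMIs at E16.5 and 5.37 to 12.6% at P3. With those UMIs left out of the totals, the ratio of the mean C1qa levels, P3 over E16.5, was 4.81 instead of 6.49, and that of C1qc was 2.76 instead of 3.71. When the deep E16.5 cluster of macrophage-like cells alone (1867 ± 304 CPM of C1qa) was compared with P3, the 6 calls held, with log2 fold changes of 1.73 ± 0.21 for C1qa and 0.89 ± 0.23 for C1qc, and C3 passed as well (0.91 ± 0.20, adjusted p = 0.00372, edgeR). Both alternatives were chosen after the data had been seen. The removed pair of P3 clusters led by macrophage genes held 435 and 420 cells, over 50% of them called doublets. With the called doublets of other clusters kept and this pair still left out, the P3 mean of C1qa was 6255 ± 1422 CPM. The level with the pair restored was not computed.

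Among the genes other than C1q and Cfp in hepatocyte-like cells, 3 of 5 rose, where 19.9% of all genes were higher at P3. Mbl2 rose by 3.86 ± 0.32 (adjusted p = 2.03e-06, edgeR), C4b by 2.84 ± 0.41 (adjusted p = 1.16e-04, edgeR) and C3 by 1.17 ± 0.17 (adjusted p = 1.15e-04, edgeR). The size of the C4b rise depended on library D: without it the rise was 2.14 ± 0.25 (adjusted p = 5.41e-05, edgeR), and the P3 mean was 85.1 ± 25.2 CPM. Cfb had a log2 fold change of -0.72 ± 0.35 (adjusted p = 0.117, edgeR) and C2 of -0.53 ± 0.24 (adjusted p = 0.0832, edgeR). Cfb depended on library A: without it the log2 fold change was -1.58 (adjusted p = 1.83e-04, edgeR). In the deep clusters alone, Cfb stood at -0.0025 and C2 at 0.02, the latter with a changed sign. The deep-cluster value of Cfb rested on library A as well, which had 169.7 CPM against 29.4 to 68.0 in the other P3 libraries. Without library A, Cfb in the deep clusters fell by 0.88 ± 0.23 (adjusted p = 0.00834, edgeR), from 98.9 CPM to 45.2 ± 20.2 CPM. In the deep clusters, C3 (1.88 ± 0.14), C4b (3.50 ± 0.31) and Mbl2 (4.41 ± 0.31) rose too.

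In mesenchymal-like cells, both tested genes other than C1q and Cfp rose, C3 by 4.55 ± 0.29 (adjusted p = 5.4e-08, edgeR) and C2 by 3.61 ± 0.35 (adjusted p = 2.02e-06, edgeR). Of all genes tested in this class, 14.5% were higher at P3. The mesothelial markers were higher beside them, as described above. The 18 neutrophil markers, summed, went from 5353 ± 4067 to 19340 ± 11220 CPM in this class and the 9 monocyte markers from 267 ± 135 to 1016 ± 475 CPM. Neutrophil-like cells had 275.5 to 418 CPM of C3 at P3. The part of these markers in the rise was not tested. C3 was 42.6 to 167 CPM at P3 in the cells without a mesothelial UMI.

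In neutrophil-like cells, neither C3 (0.24 ± 0.19, adjusted p = 0.316, edgeR) nor Cfp (0.38 ± 0.18, adjusted p = 0.112, edgeR) passed. In monocyte-like cells, where 24.9% of all genes were higher, Cfp rose by 0.71 ± 0.12 (adjusted p = 3.86e-04, edgeR) and C3 did not pass (0.36 ± 0.15, adjusted p = 0.0616, edgeR). Dendritic-like cells were set apart only at P3, and their part in the E16.5 monocyte-like values was not tested. Outside the macrophage-like class, the C1q genes and Cfp were higher at P3 in 23 of 39 pairs and lower in none, where 22.1% of all pairs were higher. These include C1qa and C1qb in hepatocyte-like cells, which did not pass in the deep clusters alone (adjusted p = 0.699 and 0.784, edgeR). They also include erythroid-like cells, where C1qa went from 4.39 ± 0.850 to 49.5 ± 19.4 CPM. Without the P3 cluster led in part by macrophage genes the level was 25.6 ± 11.9 CPM. The summed macrophage markers went from 753 ± 162 to 1347 ± 146.5 CPM in endothelial-like and from 111 ± 22.8 to 140 ± 10.7 CPM in neutrophil-like cells. They were lower at P3 in monocyte-like (267 and 211 CPM), mesenchymal-like (659 and 407 CPM) and T and NK-like cells (203 and 115 CPM). The marker sum was also lower at P3 in hepatocyte-like cells, where C1qa and C1qb were higher. It stood there at 6.42% of the macrophage-like sum at E16.5 and at 1.13% of it at P3. The part of these markers in these pairs was not tested. In the remaining 20 pairs, C3 rose in endothelial-like cells, where 17.1% of all genes did (0.91 ± 0.27, adjusted p = 0.0139, edgeR), which rested on library B (0.59 and adjusted p = 0.0832 without it, edgeR). In that class the neutrophil markers went from 5991 ± 1615 to 19650 ± 7780 CPM and the mesenchymal markers from 114 ± 16.2 to 603 ± 180 CPM, and their part was not tested. C3 and Cfb fell in erythroid-like cells, Cfb fell in B-like cells and C3 fell in megakaryocyte-like cells, where 25.3%, 24.7% and 20.4% of all genes fell. Leaving out 1 library ended the call in B-like cells in 7 of 9 cases and that in megakaryocyte-like cells in 4 of 9. The hepatocyte markers were lower at P3 in the same classes, at 1824 and 351 CPM in erythroid-like, 1674 and 524 CPM in B-like and 2891 and 199.6 CPM in megakaryocyte-like cells at E16.5 and P3, and their part was not tested.

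The other genes of the complement system were read from a list of 41, of which 40 were on both gene lists. At E16.5, 33 of them reached at least 5 CPM and at least 5 times the erythroid-like level in their leading class, and hepatocyte-like cells led in 17 of these, among them Hc, C8a, C8b, C8g and C9 of the terminal pathway and the regulators Cfi and C4bp. Macrophage-like cells led in 4 (Fcna, C6, C3ar1 and Vsig4), neutrophil-like cells in 5, and mesenchymal-like cells in 3, the lectin pathway genes Masp1, Colec10 and Colec11. At P3, hepatocyte-like cells led in 11 and mesenchymal-like cells in 7, which now included C1ra, C1rb, C1s1 and Serping1, the proteases of the C1 complex and their inhibitor.

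Between the stages, 227 pairs of class and other complement gene were tested, and 56 were higher and 81 lower at P3 by the edgeR test, beside 22.1% of all pairs in each direction, with a median log2 fold change of -0.32. Macrophage-like cells rose in Fcna, a ficolin (1.602 ± 0.19), C6 (1.90 ± 0.19), the complement receptor Vsig4 (2.81 ± 0.34) and C5ar1, the receptor of the C5a fragment (2.11 ± 0.35). Fcna went from 673.2 ± 156 to 3125 ± 378 CPM, and Vsig4 from 90.6 ± 45.1 to 982.2 ± 166 CPM. In hepatocyte-like cells, C9 fell by 3.79 on the log2 scale (17.4 ± 9.76 to 1.30 ± 0.71 CPM), C1s1 fell by 1.49, C8b fell by 0.95 and C8g fell by 0.79, whereas C8a rose by 1.18 and Serping1 by 1.57. Mesenchymal-like cells rose in C1ra (3.38 ± 0.40), C1s1 (2.08 ± 0.33), Serping1 (2.00 ± 0.29) and Clu, a regulator (3.36 ± 0.30). In the same class the summed mesothelial markers went from 172 ± 77.6 to 1218 ± 468 CPM and the 7 cholangiocyte markers from 117 ± 29.5 to 487 ± 252 CPM, with Cldn4 at 0 at E16.5. Their part in these 4 genes was not tested.

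The effect of the Jag1 genotype was tested at E16.5, with Jag1Ndr/Ndr replicates 1 and 2 against the 3 libraries without the homozygous label. Of the 114537 pairs of class and gene, 0.00175% passed (2 pairs). Of the 9 complement genes, 69 pairs were tested and 0 passed by edgeR's quasi-likelihood test or by DESeq2. In this test, 3 had an unadjusted p under 0.05 (edgeR), beside 1.85% of all pairs. This count became 11 of 65 without the shared library, beside 2.17% of all pairs, and 9 of 70 without Jag1Ndr/Ndr replicate 2, beside 3.93%. It was 8 of 65 without Jag1Ndr/+ replicate 1 (2.7% of all pairs), 5 of 70 without Jag1Ndr/Ndr replicate 1 (1.9%) and 6 of 69 with the replicate number as a block (3.01%). In the classes that led at E16.5, the log2 fold change ranged from -0.48 ± 0.30 (C4b) to 0.74 ± 0.24 (Mbl2), and for 7 of the 9 genes its sign changed under some alternative. C1qa in macrophage-like cells differed by -0.19 ± 0.28 and C3 in hepatocyte-like cells by -0.02 ± 0.19.

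The 3 pairs were Mbl2 in hepatocyte-like cells (unadjusted p = 0.0129, edgeR) and C1qb in monocyte-like (0.76 ± 0.33, unadjusted p = 0.0418, edgeR) and neutrophil-like cells (0.72 ± 0.29, unadjusted p = 0.036, edgeR), all with an adjusted p of 1. Mbl2 was 12.1 and 14.5 CPM in the homozygous libraries and 6.39 to 10.9 CPM in the other 3. Its log2 fold change was 0.64 to 0.93 over the alternatives, higher in the homozygous libraries in each of them. C1qb in monocyte-like cells was highest in Jag1Ndr/Ndr replicate 1, at 74.9 CPM, while replicate 2 had 39.7 CPM, inside the range of the others (21.8 to 42.7). The summed macrophage markers in monocyte-like cells were also highest in that library, at 408.3 CPM, and their part in the value was not tested. Without the filter on low counts, 4 of 97 pairs passed, beside 0.258% of all pairs (493 of 191251), namely C1qb in monocyte-like cells and the 3 C1q genes in T and NK-like cells. That class held 127 cells in all, and Jag1+/+ replicate 1, with 10 cells, was left out as under 20. The C1qa UMIs were 12, 1, 1, 32 and 0 in the 5 libraries. The 12 in the library left out were among 128704 UMIs, and the 32 in Jag1Ndr/Ndr replicate 1 among 654125. The C1qa level was thus highest in the library left out. The summed macrophage markers ranged from 25.9 to 652.7 CPM and were also highest there. Of the other complement genes, 0 of 242 pairs passed by edgeR, and 10 had an unadjusted p under 0.05.

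At P3, only library C carried the homozygous label alone and only library D the heterozygous one, so there was no replicate and no test. Relative to library D, library C had 1.53 times the C1qa level in macrophage-like cells (exact interval of the ratio of counts, 1.49 to 1.56), 1.36 times that of C1qb, 1.85 times that of C1qc and 1.07 times that of Cfp. In hepatocyte-like cells it had 0.612 times the C3 level (0.578 to 0.648), 0.326 times that of C4b (0.261 to 0.406) and 0.618 times that of Mbl2 (0.500 to 0.763). The ratio for mesenchymal-like C3 was 2.02 (1.62 to 2.53). Libraries A and B, of unclear genotype, lay nearer to library C than to library D in all 8 of these levels. Other levels of these classes went the other way. In hepatocyte-like cells, libraries A to D had 16.49, 17.35, 25.11 and 16.41 CPM of C2 and 67.8, 22.95, 11.6 and 24.6 CPM of Cfb. Macrophage-like cells had 83.3, 80.5, 97.99 and 87.3 CPM of C2. In the deep hepatocyte-like cluster alone, libraries C and D lay close together for C3 (5142 and 5316 CPM) and Mbl2 (358.3 and 369.7 CPM). For C4b they stayed apart there, at 286.1 and 554.5 CPM. Library D was also the shallowest of the 4 and had the largest share of hepatocyte markers in its hepatocyte-like cells. Its deposited barcodes began at 500 UMIs, those of the matrix behind library C at 2399. These differences compare 2 libraries and not 2 genotypes.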

How the data were processed

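The authors deposited raw UMI counts per gene and cell barcode, made with 10x software 3.1.0 (E16.5) and 3.0.2 (P3), per the file headers. The submitters' processing notes name Cell Ranger 2.1.1, R 4.1.2, Seurat and mm10. Scrublet, as built into Scanpy 1.11.5, marked 4.11 to 13.4% of the cells of a library as doublets, which were removed, as were clusters with over 50% doublets. Each stage was clustered on 2000 variable genes, 30 principal components and 15 neighbours (Leiden, resolution 1). A cluster took the name of the marker list with most genes among its 10 leading genes or, where none led (3 erythroid-like clusters), with the highest mean z-score (at least 0.25). At least 3 markers had to be detected, each in at least 5% of its cells. Counts were summed per library and class with at least 20 cells. They were tested with edgeR 4.0.16 (TMM, filterByExpr, quasi-likelihood) and Benjamini-Hochberg adjustment over all pairs of class and gene, after a test on simulated data. DESeq2 1.42.0 was an alternative. Exact Poisson intervals at 95% cover counting error only. Named genes were the 9 complement genes, the 3 genes most like each (at least 20 CPM in a class) and listed complement genes. The genes and lists were chosen with earlier results of these data known. Total UMIs per library ranged from 72777843 to 253187351.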

Additional observations from a re-analysis of the deposited data

Results flagged for a closer look

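C3 in the hepatocyte-like cells of P3 library D stood at 3296 CPM, while the other 3 P3 libraries stood between 1919 and 2018 CPM. The gap to the nearest library was 0.928 of the whole range. The threshold for naming such a gap is passed by chance in about 1 in 20 groups, and 36 values were examined in this way. In the deep hepatocyte-like cluster alone, library D had 5316 CPM, within the range of the other libraries. The summed hepatocyte markers took 14.2% of the UMIs of this class in library D and 6.71 to 8.55% in the others.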

How the results depend on the processing

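Between the stages, 39 of 74 pairs of complement gene and class were called, beside 44.3% of all pairs. The count was 39 with RLE size factors, beside 44.2% of all pairs, and 42 with DESeq2, beside 43.1%. It was 47 of 99 without the filter on low counts, beside 29.8%, and 36 of 72 without libraries A and B, beside 33.3%. Leaving out each library in turn gave 37 to 43, beside 39.1 to 43% of all pairs. With the replicate number as a block it was 40, beside 43%. The labels do not say that a number marks a shared litter or day, and the correlation of same-numbered E16.5 libraries was 0.038 to 0.446 over 11 classes. For the Jag1 genotype, the count was 0 with the replicate block, 0 to 0 when each library was left out, and 4 of 97 without the filter on low counts, beside 0.258% of all pairs, and the cause was not tested. C2 in hepatocyte-like cells turned from -0.53 to 0.0216 between the stages in the deep clusters alone, and to 0.117 and 0.159 there without library A or D. With the deep clusters and without library B, C or D, Cfb in hepatocyte-like cells turned from -0.72 to 0.0760, 0.195 and 0.199, and C1qb in the same cells turned from 1.61 to -0.00778 without library C. The cause was not tested. Of 902 recomputed log2 fold changes between the stages, 851 kept their direction and side of the threshold, 41 no longer passed, 3 newly passed and 7 changed sign. Leaving a library out of the deep clusters was added after the data had been seen. The leading class was the same in 18 of 18 cases except without library A, where 17 kept it. Leaving out 1 library ended the call of Cfb in B-like cells in 7 of 9 cases and that of C3 in megakaryocyte-like cells in 4 of 9. At P3, few hepatocyte-like and mesenchymal-like cells per library limit C2, Cfb and C4b.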
